A study of Mus musculus with 15 samples.

Results

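Hox genes encode homeodomain transcription factors that give cells their position along the body axis, and in mouse they lie in the HoxA, HoxB, HoxC and HoxD clusters. All gene symbols made of Hox, a cluster letter from a to d and a number were taken, which gave 39 of the 21886 genes in the deposited RPKM table (reads scaled to gene length and to mapped reads): 11 in HoxA, 10 in HoxB, 9 in HoxC and 9 in HoxD. The deposited count table of a second experiment listed 29 of them among its 14301 genes, namely 11 of HoxA, 9 of HoxB, none of HoxC and 9 of HoxD. The genes were chosen by symbol alone, with earlier results of these data known.

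The libraries came from prostate epithelial cells of C57BL/6 mice grown as organoids, which are epithelial cultures in three-dimensional matrix. The RPKM table held 4 groups from 3-month-old mice: double null (both copies of Setd2 and of Ezh2 deleted, labelled SETD2 EZH2 KO), Setd2 null (SETD2 KO), Ezh2 null (EZH2 KO) and control (CTRL), whose Setd2 and Ezh2 were intact. The count table held organoids of 2-month-old mice that carried Ezh2 K735R, a lysine-to-arginine substitution in the Ezh2 protein, and organoids with wild-type Ezh2 (Ezh2 WT). Every group had 2 libraries. Those of the 3-month-old mice were pools of equal masses of RNA from 3 biological replicates, so the spread between libraries is that between pools, and no pool size is given for the 2-month-old mice. The labels mark the deletions PC, and the transgene that drives them is not given in the sources used here. Mice of the 2 tables also differed in background genotype, and groups were compared only within a table.

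Genes with low paralogue numbers lie at the 3′ end of each cluster and act early and anteriorly in the embryo, and genes with high numbers lie at the 5′ end and act in posterior structures, the urogenital tract among them. Hoxb13, Hoxa13 and Hoxd13 are needed for normal growth of the prostate or its ducts in mouse. Hox clusters are classical targets of Polycomb repression: Ezh2 is a catalytic subunit of Polycomb repressive complex 2 (PRC2), which methylates histone H3 at lysine 27, and Ezh1 is its paralogue. Setd2 trimethylates lysine 36 of histone H3 in transcribed genes, and methylated lysine 36 inhibits PRC2 on the same histone tail. The comparisons therefore ask how Hox transcript levels differ with Ezh2, with Setd2, with both, and with a single substitution in Ezh2.

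In mm10 the HoxA cluster lies on the minus strand of chromosome 6, HoxB spans chr11:96194361-96368254, HoxC chr15:102921131-103036856 and HoxD chr2:74668310-74765142, the last 3 on the plus strand. RefSeq promoter windows of GRCm38.p6, which reach from 250 bases before a transcript start in RefSeq to 50 after it, were at hand for 22 of the 39 genes. These 22 genes had 24 windows. By the window richest in CG of each gene, 12 genes held at least 15 CG dinucleotides, the base pair step that marks CpG islands. Over all 32851 promoter windows the share was 34.6%, which counts windows and not genes. The 4 windows below belong to genes on which the results turn: Hoxb8, one of the 2 HoxB genes that changed most, and Hoxd9, Hoxd10 and Hoxd12, which lie beside or near a change of direction inside HoxD. They are written 5′ to 3′ on the plus strand, at chr11:96281655-96281954, chr2:74697513-74697812, chr2:74691641-74691940 and chr2:74674763-74675062 in the order printed, with each CG in capitals. The windows of Hoxd9 and Hoxd12 stand at the start of the gene's span in the deposited table, while those of Hoxb8 and Hoxd10 lie inside that span.
Hoxb8: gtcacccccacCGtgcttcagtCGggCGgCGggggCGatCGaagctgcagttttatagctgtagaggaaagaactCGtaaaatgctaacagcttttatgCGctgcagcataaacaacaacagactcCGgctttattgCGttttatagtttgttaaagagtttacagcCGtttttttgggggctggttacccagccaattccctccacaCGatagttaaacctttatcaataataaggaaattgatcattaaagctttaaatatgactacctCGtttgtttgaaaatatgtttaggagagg
Hoxd9: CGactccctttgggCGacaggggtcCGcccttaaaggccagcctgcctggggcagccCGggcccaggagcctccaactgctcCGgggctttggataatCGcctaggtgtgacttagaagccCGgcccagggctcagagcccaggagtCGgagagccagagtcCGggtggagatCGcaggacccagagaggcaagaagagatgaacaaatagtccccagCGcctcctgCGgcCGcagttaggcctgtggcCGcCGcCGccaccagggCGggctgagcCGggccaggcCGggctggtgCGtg
Hoxd10: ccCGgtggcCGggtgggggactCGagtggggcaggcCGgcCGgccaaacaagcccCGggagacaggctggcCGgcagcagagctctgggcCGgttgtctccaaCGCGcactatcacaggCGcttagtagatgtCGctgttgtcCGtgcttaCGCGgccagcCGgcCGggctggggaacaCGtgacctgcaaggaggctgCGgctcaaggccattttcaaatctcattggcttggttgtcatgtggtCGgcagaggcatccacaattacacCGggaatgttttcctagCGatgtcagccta
Hoxd12: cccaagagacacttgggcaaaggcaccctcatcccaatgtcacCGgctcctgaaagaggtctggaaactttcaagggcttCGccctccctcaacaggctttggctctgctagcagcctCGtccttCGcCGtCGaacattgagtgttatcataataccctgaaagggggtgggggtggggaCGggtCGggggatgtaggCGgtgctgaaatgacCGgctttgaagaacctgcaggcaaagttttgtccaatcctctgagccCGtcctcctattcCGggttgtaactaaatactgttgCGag
The Hoxb8 window held 13 CG, that of Hoxd9 held 20, that of Hoxd10 held 22 and that of Hoxd12 held 13. Across HoxD, the windows of Hoxd3, Hoxd4, Hoxd8 and Hoxd9, which rose without Ezh2, held 4 to 20 CG, and those of Hoxd10 to Hoxd13, which fell, held 4 to 37, so the ranges overlap.

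Depth was 29687452 to 54234389 recovered reads a library in the RPKM table and 28831228 to 37482322 counts a library in the count table. Setd2 RPKM was 8.99 and 7.54 in double null, 8.75 and 10.3 in Setd2 null organoids, 14.6 and 11.6 in Ezh2 null organoids and 17.0 and 16.1 in control libraries. Ezh2 RPKM was 16.6 and 14.2 in double null, 24.2 and 20.7 in Setd2 null organoids, 13.8 and 11.6 in Ezh2 null organoids and 19.4 and 20.8 in control. Both genes were thus lowest where they were deleted but still present over the whole gene, and the deposited values do not resolve the deleted exons. Setd2 was not called lower in Setd2 null than in control (log2 change −0.74, adjusted p = 0.0563), and Ezh2 was called lower in Ezh2 null (−0.63, adjusted p = 0.00414; limma). On the second principal component, which held 6.93% of the variance, the first double null and Ezh2 null libraries scored −19.62 and −20.99 and the second ones 21.29 and 20.63, so the 2 libraries of each of these groups stood apart in the same direction. Results that rest on one of these libraries are given with and without it. In bulk RNA, fewer cells of a type and less RNA per cell cannot be told apart.

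In control organoids the Hox genes with the highest levels were posterior members of 3 clusters: Hoxd13, Hoxa9, Hoxb13 and Hoxa10 had mean RPKM of 44.8, 21.8, 19.8 and 18.0. A mean of at least 10 RPKM was reached by 11 genes in double null, 4 in Setd2 null organoids, 13 in Ezh2 null organoids and 5 in control. A mean of 0 was listed for 2, 10, 3 and 8 genes in the same order of groups, and Hoxb1 and Hoxc12 were at 0 in all 8 libraries. Summed over HoxB, the RPKM was 169 and 188 in double null, 40.1 and 41.4 in Setd2 null organoids, 208 and 239 in Ezh2 null organoids and 47.6 and 46.9 in control libraries. HoxB therefore gave 54.0% and 54.8% of all Hox RPKM in double null and 60.8% and 60.9% in Ezh2 null libraries, against 21.4% and 23.0% in Setd2 null and 23.6% and 23.8% in control. HoxA and HoxD sums differed much less: HoxA gave 67.7 and 74.1, 78.4 and 74.4, 50.1 and 55.2, and 71.4 and 75.7 RPKM in double null, Setd2 null, Ezh2 null and control, and HoxD gave 73.8 and 78.9, 69.1 and 64.1, 83.0 and 97.6, and 82.7 and 74.9.

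**Figure D1:**
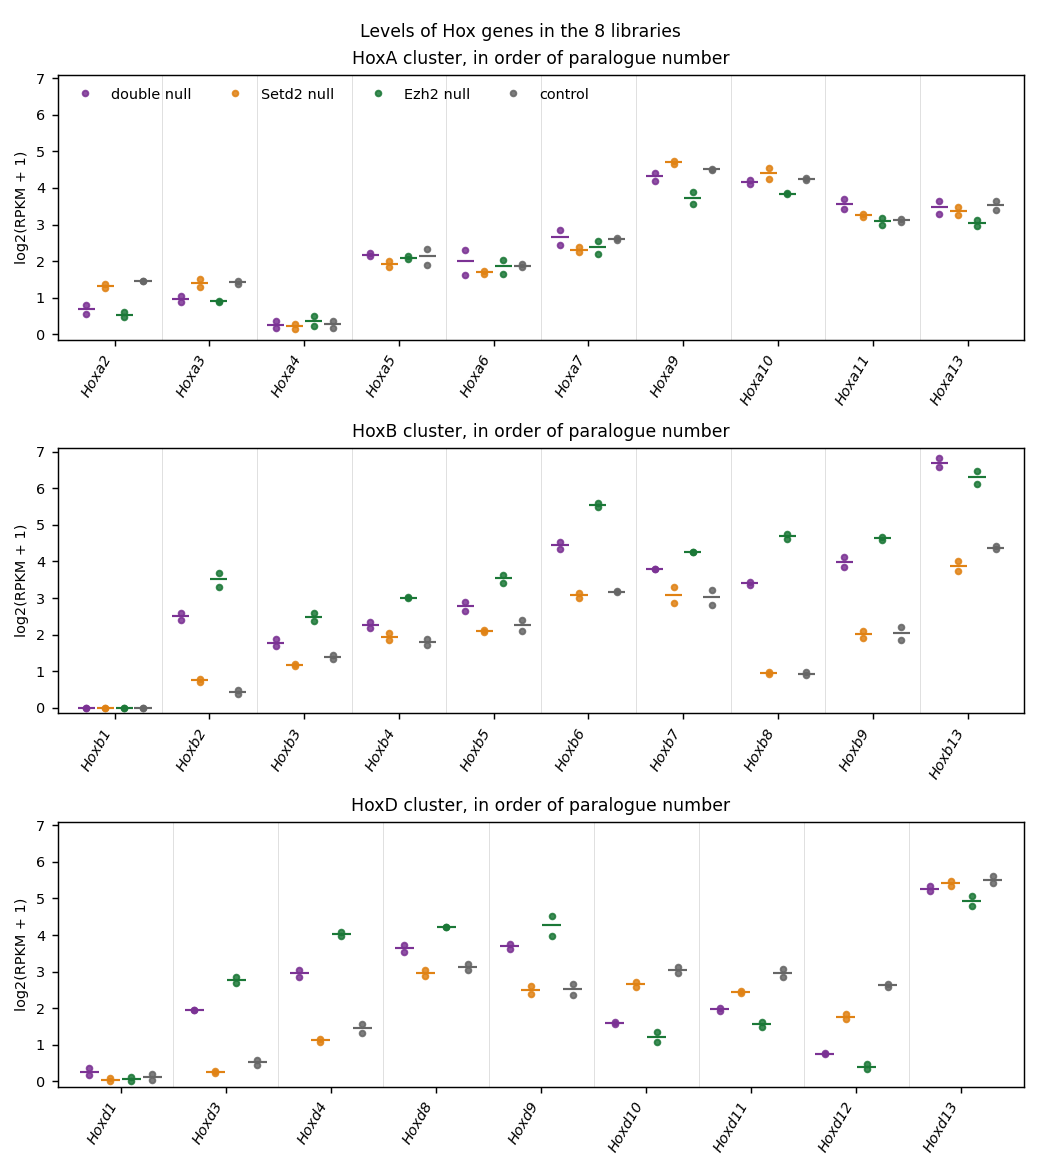
Level of HoxA, HoxB and HoxD genes in each of the 8 libraries as log2(RPKM + 1), with genes in order of paralogue number; points are libraries, bars are group means, and colours mark the 4 groups. All HoxB genes but Hoxb1 were highest in double null or Ezh2 null organoids, while in HoxD Hoxd3 to Hoxd9 were higher and Hoxd10 to Hoxd12 lower in these 2 groups than in Setd2 null and control.

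Without Ezh2, HoxB rose as a whole, HoxD changed in opposite directions at its 2 ends, and HoxA genes fell or did not pass the test. The test was limma on log2(RPKM + 1), fitted to the 11338 genes that averaged 1 RPKM or more, with Benjamini-Hochberg adjustment over them and a threshold of 0.05; 26 Hox genes were tested (9 in HoxA, 9 in HoxB, none in HoxC and 8 in HoxD). In Ezh2 null against control organoids 22 of the 26 were called, 13 higher and 9 lower, where 56.6% of all genes tested were called (36.1% higher and 20.5% lower). The median log2 change was 0.54 over the Hox genes and 0.18 over all genes tested. By cluster it was −0.40 in HoxA with 0 higher and 5 lower, 1.93 in HoxB with 9 higher and 0 lower, and 0.25 in HoxD with 4 higher and 4 lower. Hoxb2, Hoxb8 and Hoxd3 averaged under 1 RPKM in both groups with Ezh2, and Hoxa2, Hoxa3 and Hoxd12 in both groups without it, so these passed the filter through the groups in which they were higher. By paralogue number, 3 of 5 tested genes of groups 1 to 3, 7 of 10 of groups 4 to 8 and 3 of 11 of groups 9 to 13 were higher, and 2, 0 and 7 were lower. When libraries were scaled by median ratios, the median of all genes moved to 0.01 and the share of calls that were higher moved to 49.8%, against 63.8% in the fit reported, and the same 13 Hox genes remained higher and the same 9 lower.

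In HoxB the anterior gene Hoxb2, whose product patterns the hindbrain, and the central gene Hoxb8 changed most. Hoxb2 had 8.96 and 11.8 RPKM in Ezh2 null organoids, against 0.395 and 0.304 RPKM in control, a 29.6-fold ratio of means (log2 change 3.06 ± 0.147 SE, adjusted p = 2.38e-07). Hoxb8 had 23.4 and 26.1 RPKM in Ezh2 null and 0.85 and 0.958 RPKM in control, a 27.4-fold ratio (3.76 ± 0.121, adjusted p = 2.76e-08). The log2 change is understated for Hoxb2 because 1 RPKM was added before the logarithm, which is why its order against Hoxb8 differs from that of the ratios. Both genes were near the low end of the cluster in control and did not overlap between the groups.

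Hoxb6, a gene of the trunk region, had 43.7 and 47.7 RPKM in Ezh2 null and 8.1 and 7.99 RPKM in control (log2 change 2.37, adjusted p = 4.17e-07). Hoxb9, the most posterior gene of the main block of the cluster, had 23.2 and 24.4 RPKM in Ezh2 null and 3.62 and 2.63 RPKM in control (2.60, adjusted p = 9.54e-07). Hoxb13, the homeobox gene of prostate epithelium, lies 74.7 kb from Hoxb9 and had 68.7 and 88.4 RPKM in Ezh2 null and 19.3 and 20.3 RPKM in control (1.93 ± 0.162, adjusted p = 9.69e-06). The rise therefore reached across that gap and held for a gene already at a high level in control. The remaining genes changed less: Hoxb4 had 7.14 and 6.98 RPKM in Ezh2 null and 2.26 and 2.65 RPKM in control. Hoxb5 had 9.72 and 11.4 RPKM in Ezh2 null and 3.25 and 4.33 RPKM in control. Hoxb7 had 18.0 and 18.2 RPKM in Ezh2 null and 8.35 and 6.03 RPKM in control. With Hoxb3, at 5.04 and 4.16 RPKM in Ezh2 null and 1.51 and 1.74 RPKM in control, these 3 genes changed by 1.09 to 1.28 on the log2 scale. All 9 HoxB calls held under every alternative that tested them. Hoxb2, Hoxb3 and Hoxb4 were not tested when genes had to average 5 RPKM or more. The transcribed spans of Hoxb3 and Hoxb4 share 3372 bases on the same strand, so reads there could be split between them in the deposited values.

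HoxD split between Hoxd9 and Hoxd10, whose spans are 2.66 kb apart. On the 3′ side, Hoxd3 had 5.49 and 6.28 RPKM in Ezh2 null and 0.364 and 0.498 RPKM in control (log2 change 2.27, adjusted p = 4.73e-07). Hoxd4 had 14.8 and 16.0 RPKM in Ezh2 null and 1.5 and 1.99 RPKM in control (2.59, adjusted p = 5.17e-07). The spans of these 2 genes share 7183 bases on the same strand. Hoxd8 had 17.6 and 17.6 RPKM in Ezh2 null and 8.29 and 7.19 RPKM in control (1.09, adjusted p = 8.45e-05). Hoxd9, a posterior gene used in limb and lumbar patterning, had 14.7 and 21.9 RPKM in Ezh2 null and 4.1 and 5.34 RPKM in control (1.74 ± 0.192, adjusted p = 5.78e-05). All 4 were higher in both Ezh2 null libraries than in either control library.

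On the 5′ side the direction was the opposite. Hoxd10 had 1.54 and 1.11 RPKM in Ezh2 null and 7.73 and 6.73 RPKM in control (log2 change −1.83 ± 0.140, adjusted p = 5.14e-06). Hoxd11 had 1.82 and 2.08 RPKM in Ezh2 null and 7.36 and 6.27 RPKM in control (−1.40, adjusted p = 1.56e-05). Hoxd12 had 0.383 and 0.266 RPKM in Ezh2 null and 5.35 and 4.99 RPKM in control, a ratio of means of 0.0627 (−2.22 ± 0.120, adjusted p = 5.07e-07). These 3 genes did not overlap between the groups and kept the call under every alternative that tested them. None of them was tested when genes had to average 5 RPKM or more. Hoxd10 and Hoxd11 share 2744 bases of span. Hoxd1, at the 3′ end, was at 0 to 0.281 RPKM in all 8 libraries and was not tested. Hoxd13, the last gene of the cluster, had 26.7 and 32.2 RPKM in Ezh2 null and 47.8 and 41.9 RPKM in control (−0.59, adjusted p = 0.00546), a smaller change from the highest level of the cluster. Its adjusted p was 0.0605 without the first control library.

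**Figure D2:**
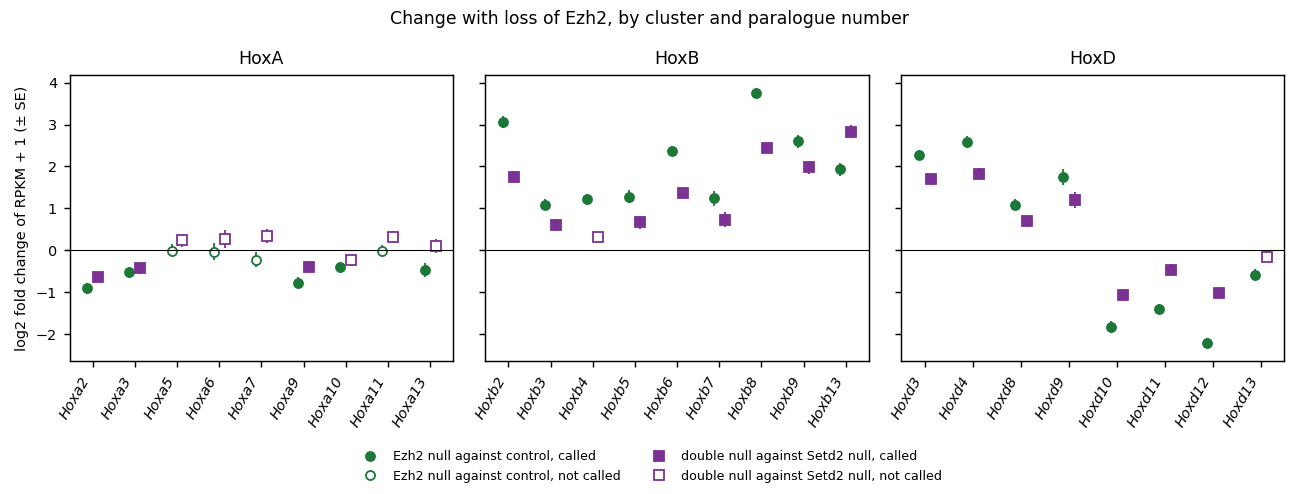
Log2 change of RPKM + 1 with its SE for each tested Hox gene, in order of paralogue number, in Ezh2 null against control (circles) and in double null against Setd2 null organoids (squares); filled symbols passed an adjusted p of 0.05 in limma. HoxB lies above 0 throughout, HoxA lies near or below 0, and HoxD crosses 0 between Hoxd9 (1.74 and 1.2) and Hoxd10 (−1.83 and −1.06).

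In HoxA the 5 called genes were all lower. Hoxa9, whose protein pairs with Meis1 and Pbx factors, had 10.7 and 13.8 RPKM in Ezh2 null and 22.0 and 21.5 RPKM in control (log2 change −0.79 ± 0.145, adjusted p = 0.00133). Hoxa10, needed for uterine function in mouse, had 13.3 and 13.5 RPKM in Ezh2 null and 17.5 and 18.5 RPKM in control (−0.40, adjusted p = 0.0273). Hoxa13 had 6.84 and 7.74 RPKM in Ezh2 null and 9.58 and 11.4 RPKM in control (−0.47, adjusted p = 0.0325). Hoxa2, a hindbrain gene, had 0.517 and 0.379 RPKM in Ezh2 null and 1.73 and 1.72 RPKM in control, a ratio of means of 0.26, with a log2 change of −0.91 that the added 1 RPKM understates. Hoxa3 fell as well, by 0.52 on the log2 scale with a ratio of 0.517, and Hoxa5, Hoxa6, Hoxa7 and Hoxa11 were not called, with log2 changes of −0.01 to −0.22. Hoxa11 had 8.03 and 6.99 RPKM in Ezh2 null and 7.47 and 7.81 RPKM in control, which overlap. The calls of Hoxa3, Hoxa10 and Hoxa13 each depended on single libraries: Hoxa3 had an adjusted p of 0.0523 without the second control library, Hoxa10 of 0.0819 to 0.141 without any one library of the 2 groups, and Hoxa13 of 0.129, 0.0515 and 0.198 without the first Ezh2 null, the first control and the second control library. Hoxa5, Hoxa6 and Hoxa7 were at 2.1 to 6.21 RPKM in all 8 libraries. Hoxa4 was below the filter, at 0.11 to 0.412 RPKM in the 8 libraries. The span of Hoxa3 covers those of Hoxa4, Hoxa5 and Hoxa6 on the same strand.

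HoxC was at or near 0 with Ezh2 present and detected at low levels without it. Summed over its 9 genes the RPKM was 2.18 and 1.98 in double null, 0 and 0 in Setd2 null organoids, 0.74 and 0.671 in Ezh2 null organoids, and 0.0172 and 0.00299 in control libraries. Hoxc6, the gene with most reads, had 144 and 145 reads in double null, 0 and 0 in Setd2 null organoids, 67 and 72 in Ezh2 null organoids, and 0 and 1 in control. Hoxc13, a gene of hair and nail, had 68 and 78 reads in double null, 0 and 0 in Setd2 null organoids, 16 and 18 in Ezh2 null organoids, and 0 and 0 in control, that is 0.563 and 0.631, 0 and 0, 0.118 and 0.156, and 0 and 0 RPKM. Reads are those recovered from the RPKM values. In the 2 Setd2 null libraries together no HoxC gene had a single read, and in the 2 control libraries Hoxc6 and Hoxc10 had 1 read each.

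HoxC genes were under 1 RPKM in every library and so outside the limma fit, but 6 of them (Hoxc4, Hoxc5, Hoxc6, Hoxc8, Hoxc9 and Hoxc13) passed the filter of edgeR's quasi-likelihood test on the reads recovered from the RPKM values of 14646 genes. In Ezh2 null against control 5 were called higher, all but Hoxc9 (adjusted p = 0.0779), where that test called 27.3% of all genes higher. In double null against Setd2 null all 6 were called higher, with adjusted p from 5.3e-05 to 0.011, where 26.5% of all genes were. Because these genes passed the filter through the groups in which they were read, the counts describe them and do not measure how often HoxC changes. Against a floor of 3 reads over a group at 0, Hoxc13 was at least 6.67-fold higher in Ezh2 null than in control and at least 33.3-fold higher in double null than in Setd2 null. Hoxc8 was at least 7.66-fold and at least 20.5-fold higher in the same comparisons. In Ezh2 null against control Hoxc6 had a ratio of 81.9 with a counting interval of 14.5 to 3260, since control held 1 read.

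**Figure D3:**
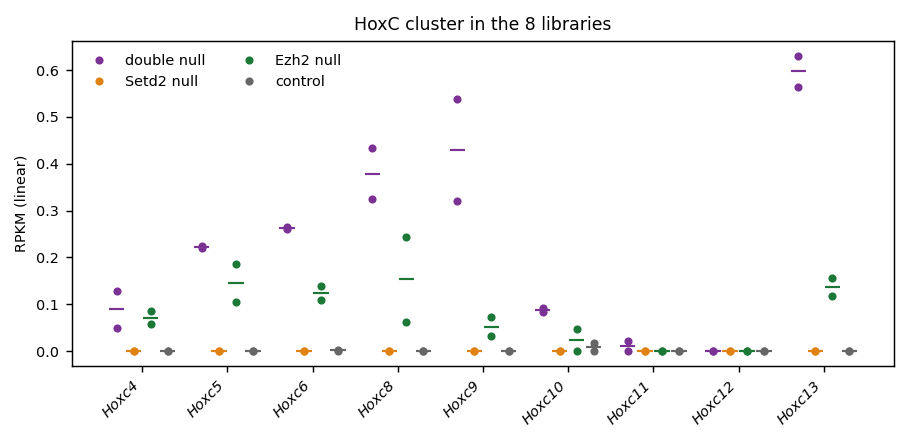
RPKM of the 9 HoxC genes in each of the 8 libraries on a linear scale, with bars at the group means and colours for the 4 groups. Double null libraries reach 0.631 RPKM at Hoxc13 and Ezh2 null libraries 0.243 RPKM at Hoxc8, while Setd2 null libraries are at 0 for every gene and control libraries reach 0.0172 RPKM at Hoxc10.

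With Setd2 deleted, 8 of 9 tested HoxB genes, all but Hoxb4, and Hoxd3, Hoxd4, Hoxd8 and Hoxd9 also rose with loss of Ezh2, and Hoxd10, Hoxd11 and Hoxd12 fell. In double null against Setd2 null organoids 18 of 26 tested Hox genes were called, 12 higher and 6 lower, where 55.0% of all genes tested were (35.6% higher and 19.4% lower). The median log2 change was 0.33 over the Hox genes and 0.18 over all genes. HoxA held 0 higher and 3 lower, HoxB 8 higher and 0 lower, and HoxD 4 higher and 3 lower. Median-ratio scaling, with 49.4% of all calls higher against 64.7% in the fit reported, gave 12 higher and 7 lower Hox genes. This comparison and that of Ezh2 null with control share no library. Both came from the same model, however, which estimated the spread from all 8 libraries. The double null and Ezh2 null libraries also shared the split on the second principal component.

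Hoxb13 had 95.1 and 112 RPKM in double null and 12.3 and 15.2 RPKM in Setd2 null organoids, a 7.52-fold ratio of means (log2 change 2.83 ± 0.162, adjusted p = 8.18e-07). Hoxb8 had 9.29 and 9.86 RPKM in double null and 0.986 and 0.893 RPKM in Setd2 null, a 10.2-fold ratio (2.45 ± 0.121, adjusted p = 3.48e-07). Hoxb9 had 16.3 and 13.5 RPKM in double null and 3.28 and 2.77 RPKM in Setd2 null (1.98). The order of these genes thus depends on the scale, since 1 RPKM was added before the logarithm. Hoxb2 had 4.33 and 5.01 RPKM in double null and 0.643 and 0.717 RPKM in Setd2 null (1.75), and Hoxb6 had 19.4 and 22.2 RPKM in double null and 7.03 and 7.89 RPKM in Setd2 null (1.36). Hoxb5 had 5.24 and 6.41 RPKM in double null and 3.24 and 3.33 RPKM in Setd2 null (0.67), and Hoxb7 had 13 RPKM in both double null libraries and 8.83 and 6.23 RPKM in Setd2 null (0.73). Hoxb4 did not pass the test, at 3.51 and 4.06 RPKM in double null and 2.61 and 3.09 RPKM in Setd2 null (0.31, adjusted p = 0.0683).

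The change of direction in HoxD stood between the same neighbours. Hoxd3 had 2.86 and 2.85 RPKM in double null and 0.209 and 0.174 RPKM in Setd2 null, a 14.9-fold ratio (log2 change 1.69). Hoxd4 had 6.16 and 7.31 RPKM in double null and 1.25 and 1.11 RPKM in Setd2 null (1.82). Hoxd8 had 12.3 and 10.7 RPKM in double null and 7.2 and 6.33 RPKM in Setd2 null (0.69), and Hoxd9 had 11.3 and 12.6 RPKM in double null and 5.06 and 4.2 RPKM in Setd2 null (1.2). These 4 rose. Hoxd10 had 1.94 and 2.1 RPKM in double null and 4.96 and 5.62 RPKM in Setd2 null (−1.06, adjusted p = 0.000191). Hoxd11 had 2.82 and 3.05 RPKM in double null and 4.3 and 4.54 RPKM in Setd2 null (−0.46, adjusted p = 0.0124), and Hoxd12 had 0.683 and 0.699 RPKM in double null and 2.25 and 2.57 RPKM in Setd2 null (−1.01, adjusted p = 9.9e-05). These 3 fell. Hoxd13 was not called, at 35.5 and 39.4 RPKM in double null and 43.9 and 39.5 RPKM in Setd2 null (−0.15, adjusted p = 0.389).

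In HoxA, Hoxa9 fell, at 17.3 and 20.4 RPKM in double null and 25.8 and 24.4 RPKM in Setd2 null (log2 change −0.40, adjusted p = 0.0407), and so did Hoxa2 and Hoxa3 (−0.64 and −0.43). Hoxa10 had 17.5 and 16.4 RPKM in double null and 22.5 and 18.1 RPKM in Setd2 null, Hoxa11 had 12.1 and 9.76 RPKM in double null and 8.77 and 8.28 RPKM in Setd2 null, and neither was called, though Hoxa10 was called lower under median-ratio scaling, under quantile normalization, in edgeR on the reads and without the second Setd2 null library (adjusted p = 0.0207, 0.0329, 0.0235 and 0.0301). Hoxa6, Hoxa7 and Hoxa11 were each called higher with one double null library left out (adjusted p = 0.0246 and 0.0352 without the first, and 0.0484 without the second). Hoxa13 had 8.73 and 11.6 RPKM in double null and 8.52 and 10.2 RPKM in Setd2 null, which overlap. The calls of Hoxa9 and Hoxa3 depended on single libraries: the adjusted p of Hoxa9 was 0.0691 to 0.222 without any one of the first double null, either Setd2 null or either control library. That of Hoxa3 was 0.134 without the first double null and 0.0984 without the second Setd2 null library. Hoxd11 had an adjusted p of 0.0703 without the first double null library, and under quantile normalization Hoxb3 and Hoxb5 had 0.0634 and 0.0614.

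Between the 2 groups that lack Ezh2, 7 of 9 tested HoxB genes and Hoxd3, Hoxd4 and Hoxd8 were lower when Setd2 was also deleted, and Hoxb6, Hoxb8 and Hoxd4 were so under every alternative run. Hoxb7 (log2 change −0.45, adjusted p = 0.232), Hoxb13 and Hoxd9 (−0.55, adjusted p = 0.17) did not pass the test, and without the first Ezh2 null library Hoxd9 did (adjusted p = 0.0372). In double null against Ezh2 null organoids 11 of 26 tested Hox genes were called, 1 higher and 10 lower, where 6.49% of all genes tested were (3.79% higher and 2.7% lower). By cluster the median log2 change was 0.27 in HoxA with 1 higher and 0 lower, −0.76 in HoxB with 0 higher and 7 lower, and −0.10 in HoxD with 0 higher and 3 lower, beside −0.02 over all genes tested. Hoxb8 had 9.29 and 9.86 RPKM in double null and 23.4 and 26.1 RPKM in Ezh2 null (−1.28 ± 0.121, adjusted p = 0.000251). Hoxb6 had 19.4 and 22.2 RPKM in double null and 43.7 and 47.7 RPKM in Ezh2 null (−1.10 ± 0.124, adjusted p = 0.000656). Hoxd4 had 6.16 and 7.31 RPKM in double null and 14.8 and 16.0 RPKM in Ezh2 null (−1.09 ± 0.141, adjusted p = 0.00147).

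The other 8 calls were less stable, though limma kept them all with the replicate number as a block. Replicate differences of these 2 groups correlated at 0.933, though the labels do not tie libraries of like number. Leaving out one of their libraries therefore also unbalances a split that both groups share. Hoxb2 (log2 change −0.99, adjusted p = 0.00323), Hoxb3 (−0.70), Hoxb4 (−0.76), Hoxb5 (−0.76), Hoxb9 (−0.64, adjusted p = 0.0381), Hoxd3 (−0.83) and Hoxd8 (−0.58) were called lower in double null, and Hoxa9 was called higher (0.59 ± 0.145, adjusted p = 0.0421). Without the first double null library the adjusted p was 0.0642 for Hoxb4, 0.113 for Hoxb5, 0.0508 for Hoxb9, 0.0577 for Hoxd8 and 0.0629 for Hoxa9. Without the second double null library it was 0.125 for Hoxb3, 0.27 for Hoxb9, 0.223 for Hoxd8 and 0.292 for Hoxa9. Without the first Ezh2 null library it was 0.105 for Hoxb3, 0.112 for Hoxb9, 0.118 for Hoxd8 and 0.297 for Hoxa9, and without the second it was 0.106 for Hoxb5, 0.157 for Hoxb9 and 0.118 for Hoxd8. With any one Setd2 null or control library left out, the adjusted p of Hoxa9 was 0.0594 to 0.0884; it was 0.0538 for Hoxb9 without either Setd2 null library and 0.052 and 0.0521 for Hoxd8 without the first and the second control library. Hoxb2 and Hoxd3 kept the call with each library left out in turn. When limma fitted only the 2 groups compared, the adjusted p was 0.0532 for Hoxb2, 0.0803 for Hoxb3 and 0.0712 for Hoxb5. In that fit it was 0.0793 for Hoxb9, 0.0719 for Hoxd8 and 0.164 for Hoxa9. In edgeR on the recovered reads it was 0.0563 for Hoxb5, 0.072 for Hoxb9 and 0.0823 for Hoxd3.

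Hoxb13 did not share the lower values of its cluster: it had 95.1 and 112 RPKM in double null and 68.7 and 88.4 RPKM in Ezh2 null organoids. Its log2 change of 0.40 did not pass the test (adjusted p = 0.255), though it did in limma with the replicate number as a block (adjusted p = 0.0433). It was the exception among HoxB genes also by level, since the double null mean lay between those of Ezh2 null and control for 8 of 9 HoxB genes and for all 8 tested HoxD genes, but above both for Hoxb13. Hoxd10, Hoxd11, Hoxd12 and Hoxd13 had log2 changes of 0.38, 0.42, 0.35 and 0.34 and were not called, though Hoxd12 was called higher in double null in edgeR on the reads and with a pseudocount of 0.1 (adjusted p = 0.0426 and 0.0429). In HoxC the counting ratios of double null over Ezh2 null ran from 1.24 (95% interval 0.765 to 2.04) for Hoxc4 to 8.44 (4.21 to 19.2) for Hoxc9, with 4.41 (3.02 to 6.61) for Hoxc13. These intervals cover counting error only, and edgeR on the reads called none of the 6 tested HoxC genes, where it called 5.08% of all genes, with adjusted p from 0.107 to 0.96.

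Double null set against control gave 14 higher and 5 lower of 26 tested Hox genes, where 54.2% of all genes tested were called (34.2% higher and 20% lower). This comparison shares its control libraries with that of Ezh2 null. Median-ratio scaling, with 49.8% of all calls higher against 63.0%, gave 10 higher and 6 lower Hox genes. In the fit reported all 9 tested HoxB genes were higher, among them Hoxb8 (log2 change 2.47, a 10.6-fold ratio of means) and Hoxb13 (2.32 ± 0.162, adjusted p = 3.09e-06, a 5.23-fold ratio), as were Hoxd3, Hoxd4, Hoxd8 and Hoxd9. Hoxd10, Hoxd11 and Hoxd12 were lower, the last by 1.87 on the log2 scale, and Hoxd13 did not pass the test (−0.25, adjusted p = 0.157), though it was called lower under median-ratio scaling, under quantile normalization and in edgeR on the reads (adjusted p = 0.0391, 0.0258 and 0.0357). Hoxa2 and Hoxa3 were lower, and Hoxa11 was higher, at 12.1 and 9.76 RPKM in double null and 7.47 and 7.81 RPKM in control (0.46, adjusted p = 0.0172). Under quantile normalization the limma adjusted p was 0.0711 for Hoxa11, 0.206 for Hoxb3, 0.146 for Hoxb4 and 0.129 for Hoxb5. In edgeR on the reads it was 0.0829, 0.0518, 0.084 and 0.106 for these genes in that order. Of the 19 calls 6 were lost in at least one alternative: under median-ratio scaling the adjusted p was 0.0681 for Hoxa11, 0.0983 for Hoxb3, 0.0538 for Hoxb4 and 0.0714 for Hoxb5, and without the first double null library it was 0.113 for Hoxa3, 0.145 for Hoxa11, 0.205 for Hoxb3 and 0.0608 for Hoxd8. Without the second double null library it was 0.104 for Hoxb4 and 0.129 for Hoxb5. Without the first control library it was 0.0973 for Hoxa11, 0.176 for Hoxb3, 0.108 for Hoxb4 and 0.164 for Hoxb5, and without the second 0.0916 for Hoxa3, 0.0647 for Hoxa11, 0.0724 for Hoxb3 and 0.0755 for Hoxd8.

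With Ezh2 intact, Hoxd12 was the one Hox gene that passed the test after deletion of Setd2. In Setd2 null against control organoids 1 of 26 tested Hox genes was called, where 1.07% of all genes tested were (0.379% higher and 0.688% lower). Hoxd12 had 2.25 and 2.57 RPKM in Setd2 null and 5.35 and 4.99 RPKM in control (log2 change −0.86 ± 0.120, adjusted p = 0.0133). The groups do not overlap, but the adjusted p was 0.0743, 0.135 and 0.104 without the first Setd2 null, the first control and the second control library, and 0.0948 in edgeR on the recovered reads. An unadjusted p under 0.05 was reached by 5 Hox genes in limma and by 6 in edgeR on the reads, which called none after adjustment and 0.908% of all genes. All 8 tested HoxD genes had log2 changes below 0, with a median of −0.29, beside −0.13 in HoxA, −0.03 in HoxB and −0.02 over all genes. Hoxb13, at 12.3 and 15.2 RPKM in Setd2 null and 19.3 and 20.3 RPKM in control, was not called (−0.50, adjusted p = 0.246).

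The difference between the 2 effects of Ezh2 loss, with and without Setd2, was tested by the interaction term of the limma fit. It is the log2 change of double null over Setd2 null minus that of Ezh2 null over control, so a value with the sign opposite to the Ezh2 effect means a smaller effect without Setd2. Of the 26 Hox genes 6 were called, 2 positive and 4 negative, where 2.59% of all genes tested were (1.69% positive and 0.9% negative). Hoxb8 had an Ezh2 effect of 2.45 without Setd2 and 3.76 with it, a difference of −1.31 ± 0.172 (adjusted p = 0.00376). Hoxb2 had effects of 1.75 and 3.06 (−1.31 ± 0.207, adjusted p = 0.0101), and Hoxb6 had effects of 1.36 and 2.37 (−1.0 ± 0.175, adjusted p = 0.016). Hoxb4 had effects of 0.31 and 1.22 (−0.91 ± 0.186, adjusted p = 0.0345). In all 4 the rise was smaller without Setd2.

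The 2 genes called in the other direction were those of 5′ HoxD that fell without Ezh2. Hoxd12 had Ezh2 effects of −1.01 without Setd2 and −2.22 with it, a difference of 1.21 ± 0.170 (adjusted p = 0.00525), and Hoxd11 had effects of −0.46 and −1.40 (0.94 ± 0.180, adjusted p = 0.0251). Their fall was smaller without Setd2. That fall also started from a lower level in Setd2 null than in control. Hoxd12 had 2.25 and 2.57 RPKM in Setd2 null and 5.35 and 4.99 RPKM in control. This difference was called, though not in every alternative. Hoxd11 had 4.3 and 4.54 RPKM in Setd2 null and 7.36 and 6.27 RPKM in control, which was not called (adjusted p = 0.114). Between double null and Ezh2 null neither gene was called in the fit reported. Hoxb13 was the HoxB gene whose difference was above 0, with effects of 2.83 and 1.93 (0.90 ± 0.229). It did not pass the test (adjusted p = 0.0921), though it did in limma with the replicate number as a block (adjusted p = 0.0137). Without the second Ezh2 null library its difference was 1.08. None of the 9 HoxA genes was called, all with values above 0 and a median of 0.31. Hoxb8 and Hoxd12 kept the call in every alternative that tested them, and Hoxd12 was not tested when genes had to average 5 RPKM or more. In edgeR on the reads the same genes but Hoxb4 were called (adjusted p = 0.119), where 1.52% of all genes were. Hoxb2 lost it without the second control library (adjusted p = 0.0605), and Hoxb6 without the first double null, the second Ezh2 null and either control library (0.0623, 0.0536, 0.0889 and 0.0979). Hoxb4 lost it whichever library was left out (0.0508 to 0.175), and Hoxd11 whichever but the second Ezh2 null library (0.0567 to 0.137).

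**Figure D4:**
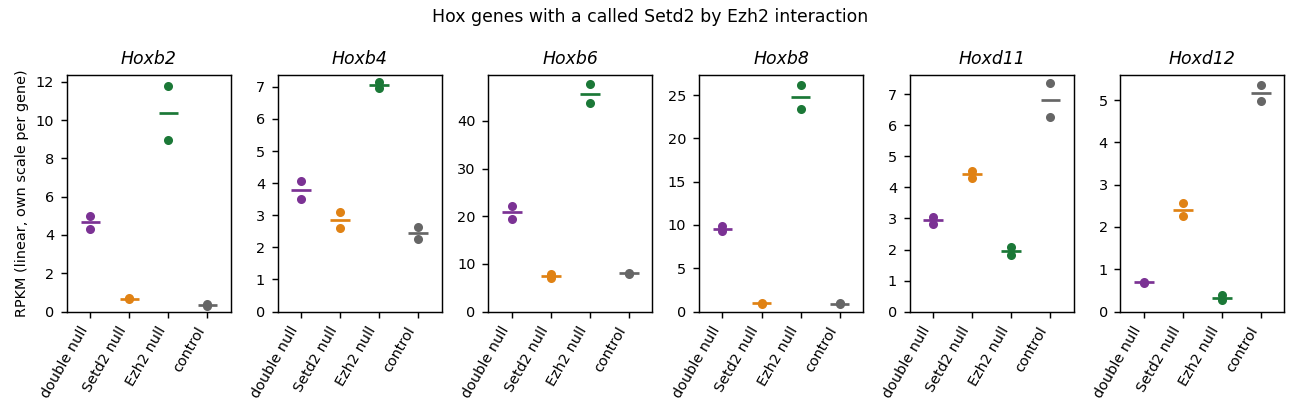
RPKM in each library of the 6 Hox genes with a called difference between the Ezh2 effects with and without Setd2; points are libraries, bars are group means, and each panel has its own linear scale. For Hoxb2, Hoxb4, Hoxb6 and Hoxb8 the Ezh2 null libraries lie above the double null ones, while for Hoxd11 and Hoxd12 the double null libraries lie between those of Setd2 null and Ezh2 null.

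No Hox gene passed the test with the K735R substitution. In Ezh2 K735R against Ezh2 WT organoids 0 of 28 tested Hox genes were called by edgeR's quasi-likelihood test on the counts, where 0.00757% of all 13203 genes tested (1 gene) were. An unadjusted p under 0.05 was reached by 3 Hox genes in edgeR, by 5 in DESeq2, which called Hoxa5 after adjustment, and by 5 in limma on log2 CPM (counts scaled to library size), which called none. The log2 change was below 0 for 23 genes and above 0 for 5, with a median of −0.34, beside −0.01 over all genes tested. All 11 tested genes of paralogue groups 4 to 8 were below 0. Of the 29 genes listed, Hoxd1 had 0 counts in all 4 libraries.

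Hoxa5, the Hox gene with the smallest p, had 5.76 and 6.2 CPM in Ezh2 K735R and 13 and 11 CPM in Ezh2 WT (log2 change −1.01 ± 0.204, adjusted p = 0.332). Hoxb6 had 12.7 and 14.0 CPM in Ezh2 K735R and 20.8 and 17.7 CPM in Ezh2 WT (−0.53, adjusted p = 0.454). Hoxb2 was the only one of its cluster above 0, from 0.603 and 0.831 CPM in Ezh2 K735R and 0.167 and 0 CPM in Ezh2 WT (3.14 ± 1.22, adjusted p = 0.537). At paralogue group 13 the groups overlapped or nearly so. Hoxa13 had 8.98 and 7.52 CPM in Ezh2 K735R and 9.81 and 8.97 CPM in Ezh2 WT, Hoxb13 had 15.3 and 17.9 CPM in Ezh2 K735R and 28.4 and 17.0 CPM in Ezh2 WT, and Hoxd13 had 83.7 and 76.4 CPM in Ezh2 K735R and 86.6 and 78.3 CPM in Ezh2 WT. The 2 Ezh2 WT libraries differed from each other more than those of any other group beyond sampling noise (95.5 per degree of freedom in a chi-square over genes, against 13.54 to 71.49). Without the second Ezh2 WT library edgeR called Hoxa5, Hoxa9 and Hoxb13 and 1595 genes in all, and without the first it called 0 Hox genes and 644 in all. Summed per kilobase of gene, HoxB gave 36.7 and 43.6 CPM in Ezh2 K735R and 61.1 and 46.9 CPM in Ezh2 WT, HoxA gave 58.6 and 58.2 against 86.1 and 69.3, and HoxD gave 54.6 and 46.9 against 52.9 and 51.0.

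**Figure D5:**
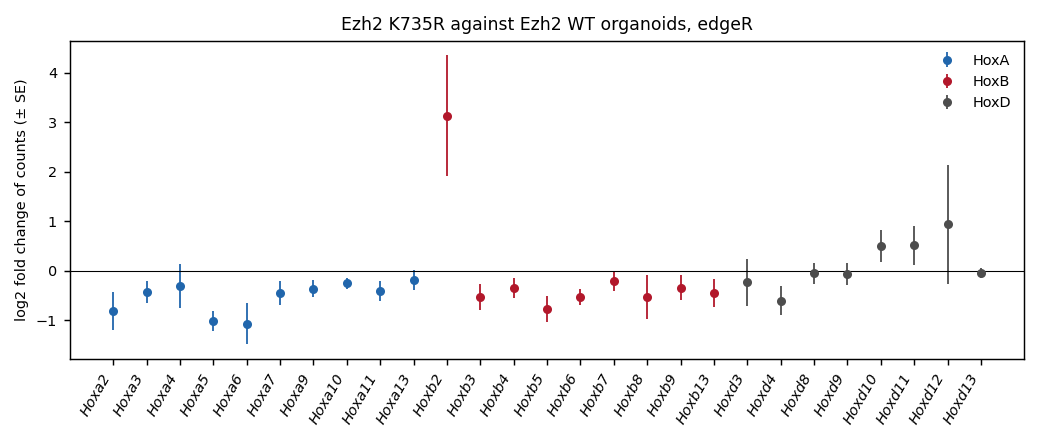
Log2 fold change of counts with its SE in Ezh2 K735R against Ezh2 WT organoids for 27 of the 28 tested Hox genes, from edgeR, coloured by cluster and in order of paralogue number. Of the 27 genes 23 lie below 0 and none passed an adjusted p of 0.05; Hoxb2, at 3.14, rests on under 1 CPM in every library.

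Among genes that border the clusters, Ttll6 changed most. It codes for a tubulin polyglutamylase, lies 28.2 kb from Hoxb13 and averaged 1.71 RPKM in double null, 0.121 in Setd2 null organoids, 1.06 in Ezh2 null organoids and 0.0587 in control. It was below the limma filter and was called higher by edgeR on the reads in Ezh2 null against control (log2 change 3.99 ± 0.318, adjusted p = 4.95e-06) and in double null against Setd2 null (3.64, adjusted p = 6.99e-06). Evx2, a homeobox gene 6.79 kb beyond Hoxd13, averaged 0.902, 1.08, 0.669 and 1.25 RPKM in double null, Setd2 null, Ezh2 null and control, and fell in Ezh2 null against control (−1.08, adjusted p = 0.00383; edgeR on the reads), while in double null against Setd2 null it was not called (−0.44, adjusted p = 0.142). Of the 10 bordering genes that limma tested in Ezh2 null against control, Snx11 beyond HoxB (0.65) and Atp5g2 beyond HoxC (0.69) were called, where 56.6% of all genes tested were, and the others had log2 changes of −0.38 to 0.33.

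Hox proteins bind DNA with cofactors of the TALE homeodomain class. In Ezh2 null against control 3 of 8 tested TALE genes rose and 1 fell, where 36.1% of all genes tested rose and 20.5% fell. Pknox2, which was under 1 RPKM in control, had 4.58 and 3.63 RPKM in Ezh2 null and 0.508 and 0.328 RPKM in control (log2 change 1.84, adjusted p = 6.55e-06). Pbx3 rose by 1.14 and Pknox1 by 0.36. In double null against Setd2 null 4 rose and 1 fell, where 35.6% and 19.4% of all genes did, with Pknox2 among the first (2.26). The list median was 0.04 in Ezh2 null against control and 0.20 in double null against Setd2 null, close to the 0.18 of all genes in the second.

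Among the regulators of Hox transcription, PRC2 subunits gave 2 higher and 5 lower of 11 in Ezh2 null against control, and 3 higher and 4 lower in double null against Setd2 null. The list includes the deleted gene Ezh2, which was among those lower in Ezh2 null (−0.63, adjusted p = 0.00414; limma). Over all genes tested 56.6% were called in the first comparison and 55.0% in the second. Phf19, a PRC2 accessory subunit that binds methylated lysine 36, rose by 0.99 (adjusted p = 0.000226), and Ezh1 fell by 0.70 (adjusted p = 0.00093). PRC1 subunits, which ubiquitinate histone H2A and read methylated lysine 27, gave 8 higher and 4 lower of 20 and then 9 higher and 2 lower. Bmi1 rose by 1.05 and Kdm2b, which brings PRC1 to CpG islands, by 0.78, while Yaf2 fell by 0.80. Trithorax-group genes and other activators of Hox genes gave 6 higher and 1 lower of 16 and then 7 higher and 1 lower, with Mllt1 at 0.93 and Wdr5, a subunit of the H3K4 methyltransferase complexes, at 0.56 in Ezh2 null. In Ezh2 K735R against Ezh2 WT none of these lists held a called gene.

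Retinoic acid induces 3′ Hox genes in the embryo, and its pathway gave 2 higher and 5 lower of 12 tested genes in Ezh2 null against control and 3 higher and 6 lower in double null against Setd2 null, where 56.6% and 55.0% of all genes were called. Aldh1a1, which makes retinoic acid, had 425 and 362 RPKM in Ezh2 null and 9.03 and 12.0 RPKM in control (log2 change 5.11). Aldh1a3, another enzyme of that step, had 13.7 and 15.7 RPKM in Ezh2 null and 197 and 192 RPKM in control (−3.64). Cyp26b1, which degrades retinoic acid, had 0.87 and 0.921 RPKM in Ezh2 null and 25.5 and 29.8 RPKM in control (−3.91), and Rarb, a receptor and target, fell by 1.95. Cdx and other ParaHox genes, relatives of the Hox genes, were too low to test: summed over 6 genes they reached 1.98 to 3.76 RPKM in double null, 0 in Setd2 null, 0.858 to 1.56 in Ezh2 null and 0 to 0.0153 in control.

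Summed levels of some lists of cell type markers, but not of all, also differed between organoids with and without Ezh2. Over 9 luminal prostate markers the summed RPKM was 2070 to 2090 in double null, 2330 to 2870 in Setd2 null, 2460 to 2540 in Ezh2 null and 2300 to 2410 in control, and over 6 basal markers it was 5110 to 5940, 2240 to 2780, 3660 to 4540 and 2440 to 2480. In Ezh2 null against control 5 of 9 tested luminal genes rose and 1 fell, and 2 of 6 basal genes rose and 2 fell, where 36.1% of all genes tested rose and 20.5% fell. The 7 markers of seminal vesicle epithelium summed to 40.3 to 56.0 RPKM in double null and 45.8 to 57.3 in Ezh2 null, against 0 to 0.0263 in Setd2 null and 0.0323 to 0.1 in control, with Svs3a and Svs6 under 0.1 RPKM in every library. The 10 stromal markers summed to 29.3 to 34.0, 2.16 to 3.27, 32.8 to 34.4 and 2.78 to 4.24 RPKM in double null, Setd2 null, Ezh2 null and control, and Des was under 0.1 RPKM in every library. All 4 stromal markers tested were higher in Ezh2 null than in control. Acta2, which was too low to test, was lower in every library without Ezh2 than in any with it. This sum therefore also hides opposite directions. The 6 urothelial markers summed to 47.5 to 53.2, 31.0 to 37.2, 60.8 to 69.0 and 29.1 to 30.3 RPKM, with 4 of 5 tested higher and 1 lower in Ezh2 null. The 6 immune markers summed to 13.7 to 14.9, 33.2 to 39.5, 13 to 13.8 and 21.8 to 24.6 RPKM with Ptprc and Cd3e under 0.1 throughout. Of the 2 immune markers tested, 1 was higher and 1 lower in Ezh2 null against control, so the sum hides opposite directions. The 4 endothelial markers summed to 3.15 at most and 5 neuroendocrine markers to 2.0 at most. The part of these cell types in the Hox differences was not tested.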

How the data were processed

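Per the labels' protocols, RNA extracted by TRIzol was read as pairs of 150 bases on a HiSeq, and per the submitters' processing notes mm10, Bowtie and RSEM were used, with no versions given. The authors deposited RPKM per gene for 8 libraries and whole-number read counts per gene for 4. The H3K27me3 chromatin samples were not analysed here, and a further genotype in the labels and values of some single genes are not reported here.

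Each gene's RPKM is a whole multiple of the value of 1 read, which gave back the reads: for genes read in all 8 libraries, 13744 of 13748 (99.97%) were whole to within 0.01 reads. Hoxd11 gave 682.29 reads in 1 library, and 682 was used. RPKM values were tested in limma 3.58.1 (trend, robust) on log2(RPKM + 1), for genes averaging 1 RPKM or more, with the 4 groups in 1 model. The deposited counts were tested in edgeR 4.0.16 (TMM, filterByExpr, robust quasi-likelihood), in R 4.3.3; DESeq2 1.42.0 was an alternative. Tests are two-sided with Benjamini-Hochberg adjustment over all genes tested, at 0.05. Counting intervals are exact at 95%.

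Values in every library are given for Hox genes called in at least 1 comparison with groups that do not overlap and a highest group mean of at least 5 RPKM or CPM, and for paralogue group 13; from other lists up to 4 called genes of smallest p were eligible to be named, and cell type markers are given as sums and counts. Members and lists were chosen with earlier results of these data known. Nothing in the labels says that libraries of like number were handled together.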

Additional observations from a re-analysis of the deposited data

Results flagged for a closer look

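In 6 Hox genes the effect of Ezh2 loss differed between organoids without and with Setd2 by the interaction term of limma. The difference in log2 change was −1.31 for Hoxb2, −0.91 for Hoxb4, −1.0 for Hoxb6, −1.31 for Hoxb8, 0.94 for Hoxd11 and 1.21 for Hoxd12. The adjusted p was 0.0101, 0.0345, 0.016, 0.00376, 0.0251 and 0.00525 in that order. The 4 HoxB genes rose less, and the 2 HoxD genes fell less, where Setd2 was also deleted. The fall of Hoxd12 started from a mean of 2.41 RPKM in Setd2 null and of 5.17 RPKM in control. edgeR on the recovered reads called 5 of the 6 (Hoxb4 had an adjusted p of 0.119). Only Hoxb8 and Hoxd12 passed in every alternative that tested them, and Hoxd12 was not tested when genes had to average 5 RPKM or more.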

How the results depend on the processing

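The count of called Hox genes was within 1.5 times the reported one under most alternatives. Restricted to genes that averaged 5 RPKM or more, which tests fewer genes, it was 0 for Setd2 null against control, 13 for Ezh2 null against control, 10 for double null against Setd2 null, 7 for double null against Ezh2 null, 10 for double null against control and 2 for the interaction, against 1, 22, 18, 11, 19 and 6. For Setd2 null against control it was also 0 under quantile normalization, a pseudocount of 0.1, edgeR on the recovered reads and a fit of only the groups compared, and for double null against Ezh2 null it was 5 in that last fit. For Ezh2 K735R against Ezh2 WT it was 0 in edgeR and 1 in DESeq2. Leaving out one library at a time gave 0 to 1, 18 to 22, 16 to 19, 6 to 9, 14 to 19, 2 to 5 and 0 to 3 calls in the order above, K735R last. Over all genes, the counts that left the 1.5-fold range were 42 to 67 under quantile normalization, no filter, the stricter filter and only the groups compared for Setd2 null (121 reported), 465 under the stricter filter and 421 with only the groups compared for double null against Ezh2 null (736), 146 under the stricter filter for the interaction (294), and 285 in DESeq2 and 2 in limma for K735R (1). With one library left out they were 24 to 128, 342 to 810, 143 to 276 and 0 to 1595 in that order.

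With the replicate number as a block, 1, 22, 20, 14, 19, 7 and 0 Hox genes were called in the same order, and 231 genes in all for Setd2 null against control, 469 for the interaction and 4 for K735R. The block adds Hoxb13 to the interaction calls (adjusted p = 0.0137), and Hoxa11, Hoxa13 and Hoxb13 to those higher in double null than in Ezh2 null (adjusted p = 0.0323, 0.0309 and 0.0433). The numbers were not taken to pair the libraries: replicate differences correlated at 0.933 between double null and Ezh2 null, at 0.358 between Setd2 null and control, and at 0.101 to 0.155 between the other groups of 1 table.

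A few single values changed sign. Hoxa13 in double null against Setd2 null (0.10) was −0.085 under quantile normalization, −0.074 under median-ratio scaling, −0.064 in edgeR on the reads and −0.086 to 0.285 with one library left out, with −0.019 without the first Setd2 null library. In double null against control (−0.05) Hoxa13 was −0.233 to 0.138 with one library left out (0.065 without the second control), and Hoxd13 in K735R (−0.04) was −0.109 to 0.03 (0.022 without the second K735R). The cause of these shifts was not tested. Depth limits HoxC, where 3 reads was the floor.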
